A study of Mus musculus with 12 samples.

Results

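The genes described here encode receptors of the EGF receptor family and the ligands that bind them: the receptors Egfr, Erbb2 and Erbb3 and the ligands Hbegf, Btc, Tgfa, Ereg and Egf. They were read from every probe set to which the platform annotation gives exactly 1 gene symbol, when that symbol was one of the 8 names. This gave 19 probe sets of 45101 on the array and 8 genes of 18193. Egfr had 7 probe sets, Tgfa 3, Erbb3, Hbegf and Btc 2 each, and Erbb2, Ereg and Egf 1 each. The ligand gene Areg was not analysed here.

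RNA from cultured mouse pancreatic cancer cells was hybridized to 12 Affymetrix expression arrays, with 3 arrays in each of 4 groups. The mt-CCs came from tumors of mice with Pdx1-Cre that also carried LSL-Trp53 R172H/+, and so keep a mutant p53. The fl-CCs came from tumors with the same Pdx1-Cre and LSL-Trp53 fl/+, which the authors call p53 null. The other groups were fl-CCs transfected with an empty vector (fl-CCs + EV) or with human mutant p53 (fl-CCs + p53 R175H). All 4 groups therefore share Pdx1-Cre, which recombines in the pancreatic epithelium. The transfected cells were kept in G418 at 0.6 mg/ml and the untransfected cells were not. No age of the tumor-bearing mice was used here. Each group is a single line, so the p-values below measure the spread between its 3 arrays, which the methods call biological triplicates, and not the spread between tumors. The labels do not say whether these came from separate cultures, and the spread may be partly technical. Differences between mt-CCs and fl-CCs cannot be told apart from differences between these lines. The same holds for comparisons with the EV or p53 R175H cells, each of them a single transfected line.

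The ErbB receptors are membrane tyrosine kinases that pair with each other when a ligand binds and then signal through MAP kinases and PI3K. ErbB2 has no known ligand of its own and ErbB3 is a weak kinase, so both act mainly as partners of another receptor. The ligands are made as membrane-bound precursors and cut free by ADAM proteases, and EGFR signaling is known to contribute to pancreatic tumor formation.

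The deposited values are log2 values after RMA, so a difference of 1 is a doubling, and a level of one probe set cannot be set against that of another. A value under 5 was taken as near background. Differences are means of 3 arrays against means of 3 arrays with the SE of a limma fit over all 12 arrays and 45037 probe sets, and a probe set was called changed when its p, adjusted by Benjamini-Hochberg, was at most 0.05. The correlation across probe sets was 0.994 to 0.996 between arrays of the same group and 0.959 to 0.990 between arrays of different groups. Of 23 measured epithelial markers, 19 had a mean of 5 or more in fl-CCs and 16 in mt-CCs, and all 6 measured ductal markers did in every group. Of 9 measured leukocyte markers, 3 had a mean of 5 or more in each group, while Ptprc, Adgre1, Itgam, Tyrobp, Laptm5 and Cd3e lay under 5 in all groups. The Trp53 transcript itself was not analysed here.

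Between mt-CCs and fl-CCs, each of the 8 genes had a probe set that changed, beside 43.3% of all genes. In this comparison 6 of the 19 probe sets were higher in mt-CCs, against 15.4% of all probe sets, and 8 were lower, against 15.3% of all. The mt-CC and fl-CC arrays did not overlap for 15 of the 19, beside 41.8% of all probe sets. The higher ones were 5 Egfr probe sets and Ereg, and the lower ones belonged to Erbb2, Erbb3, Hbegf, Btc, Tgfa and Egf. The median difference of the 19 was -0.16, beside -0.02 over all probe sets.

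With p53 R175H in fl-CCs, none of the 19 probe sets was higher than with EV (10.2% of all probe sets were), and 5 were lower (10.2% of all). The 5 were both probe sets of Hbegf, both of Btc and 1 of Erbb3. Without adjustment 8 of the 19 had a p under 0.05, beside 30.7% of all probe sets. Arrays of both groups did not overlap for 8 of the 19, beside 36.9% of all. With EV against untransfected fl-CCs, 6 were higher (6.45% of all) and 2 lower (5.66% of all), and arrays did not overlap for 10 of the 19, beside 30.6% of all. The higher ones were 2 of Egfr, 2 of Hbegf and 2 of Btc, and the lower ones were both of Erbb3. These comparisons share the EV arrays with each other, and the comparisons of EV and of mt-CCs share the fl-CC arrays.

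**Figure D1:**
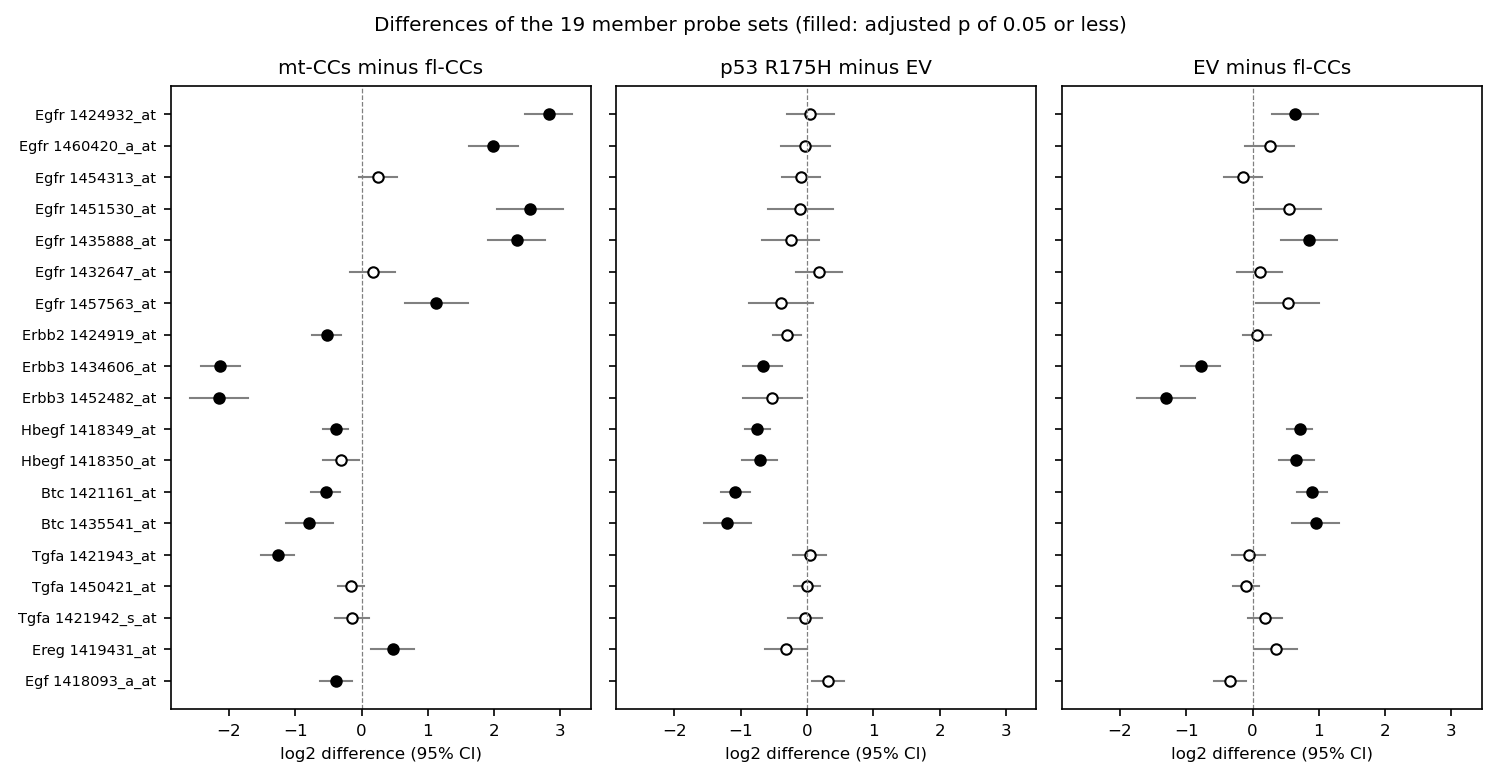
Log2 difference of each of the 19 member probe sets (horizontal axis, points, with 95% confidence intervals as bars) for mt-CCs minus fl-CCs, p53 R175H minus EV and EV minus fl-CCs, n = 3 arrays per group. Filled points passed an adjusted p of 0.05; the Egfr points lie to the right between mt-CCs and fl-CCs and around 0 with p53 R175H.

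Egfr, the receptor of EGF, HB-EGF, TGFα, betacellulin and epiregulin, showed the largest difference among the 8 genes. At probe set 1424932_at the log2 values were 10.17, 10.13 and 10.14 in mt-CCs, 6.94, 7.54 and 7.48 in fl-CCs, 7.93, 7.97 and 7.99 in fl-CCs + EV, and 8.33, 7.87 and 7.84 in fl-CCs + p53 R175H. All mt-CC arrays lay above all others, the fl-CCs were lowest, and the EV and p53 R175H arrays overlapped. The difference between mt-CCs and fl-CCs was 2.82 ± 0.16 (SE), a ratio of 7.07 (adjusted p = 4.62e-08). The group with p53 R175H differed from EV by 0.05 ± 0.16 (95% interval -0.30 to 0.40, adjusted p = 0.884). The interval of this difference thus ends far below the value of 2.82 for mt-CCs.

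The mt-CC arrays were also highest at 1435888_at and 1451530_at. At 1435888_at the values were 8.62, 8.59 and 8.59 in mt-CCs, 6.07, 6.14 and 6.56 in fl-CCs, 7.09, 7.23 and 7.02 with EV and 7.40, 6.53 and 6.66 with p53 R175H. At 1451530_at they were 8.87, 8.82 and 8.99 in mt-CCs, 5.89, 6.30 and 6.87 in fl-CCs, 6.95, 7.02 and 6.73 with EV and 6.97, 6.38 and 7.04 with p53 R175H. The mt-CC arrays were again all above the rest, and the p53 R175H arrays overlapped both the EV and the fl-CC arrays. The differences between mt-CCs and fl-CCs were 2.34 ± 0.20 (adjusted p = 1.66e-06) and 2.54 ± 0.23 (adjusted p = 2.86e-06), and at 1460420_a_at, with 8.46 to 8.87 in mt-CCs and 6.35 to 7.01 in fl-CCs, 1.98 ± 0.17 (adjusted p = 2.05e-06). Probe set 1457563_at also passed the test (adjusted p = 0.00165), but its values were 4.88 to 5.07 in mt-CCs and 3.51 to 4.11 in fl-CCs, near background, and no fold is given. At 1454313_at mt-CCs had 7.57, 7.66 and 7.40 and fl-CCs 7.32, 7.26 and 7.30, a difference of 0.25 ± 0.13 that did not pass (adjusted p = 0.177). At 1432647_at both groups lay near background. The Egfr probe sets thus disagreed in size, and 1454313_at, which was well above background, did not show the difference.

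In fl-CCs + EV the level of Egfr was higher than in untransfected fl-CCs at 1424932_at, by 0.64 ± 0.16 (adjusted p = 0.0219), and at 1435888_at, by 0.85 ± 0.20 (adjusted p = 0.0141). The first of these calls was lost without fl-CC replicate 1 and without any one of the EV arrays (adjusted p = 0.0534 to 0.0655). The second was lost without fl-CC replicate 1 (adjusted p = 0.0592), fl-CC replicate 2 (adjusted p = 0.051) or EV replicate 2 (adjusted p = 0.0542). At 1435888_at, p53 R175H against EV gave -0.25 ± 0.20 (adjusted p = 0.455), and without p53 R175H replicate 1, the highest array of its group, it gave -0.51 (adjusted p = 0.0287).

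**Figure D2:**
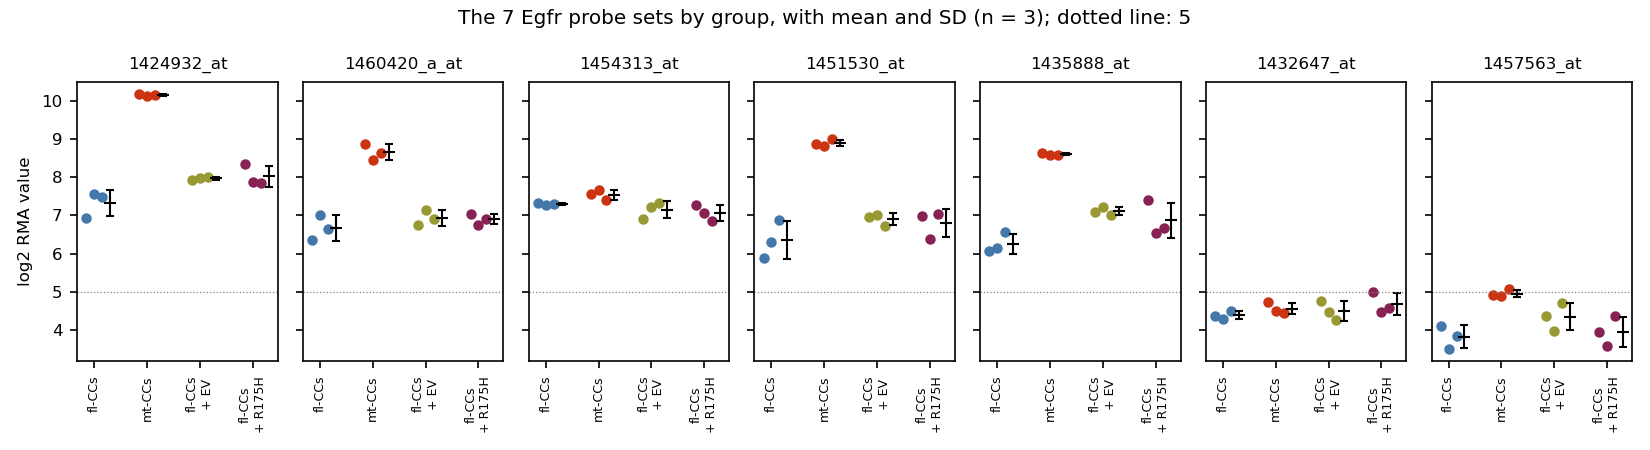
Log2 RMA value (vertical axis) of the 7 Egfr probe sets in each array, by group, with the group mean and SD as bars (n = 3); the dotted line marks 5. The mt-CC arrays stand above the other groups at 1424932_at, 1460420_a_at, 1451530_at and 1435888_at, and lie close to them at 1454313_at.

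The promoters of Egfr and Btc are shown because, among the 8 genes, Egfr had the largest rise in mt-CCs and Btc the largest fall with p53 R175H against EV. They are the 250 bases before the start of each gene in RefSeq, build GRCm38.p6, at chr11:16751953-16752202 on the plus strand for Egfr and at chr5:91402995-91403244 on the minus strand for Btc, written 5′ to 3′ along the gene. Capitals mark a match on either strand to any of 4 motifs, and no matches overlapped. The GC box was searched as GGGCGG. The TATA box was searched as TATAAA and the AP-1 site as TGANTCA. The E box was searched as CACGTG.
Egfr: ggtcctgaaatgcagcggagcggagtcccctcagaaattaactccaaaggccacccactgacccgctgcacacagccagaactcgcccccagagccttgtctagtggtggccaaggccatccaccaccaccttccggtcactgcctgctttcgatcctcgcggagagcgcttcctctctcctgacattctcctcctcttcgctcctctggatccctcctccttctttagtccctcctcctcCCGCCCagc
Btc: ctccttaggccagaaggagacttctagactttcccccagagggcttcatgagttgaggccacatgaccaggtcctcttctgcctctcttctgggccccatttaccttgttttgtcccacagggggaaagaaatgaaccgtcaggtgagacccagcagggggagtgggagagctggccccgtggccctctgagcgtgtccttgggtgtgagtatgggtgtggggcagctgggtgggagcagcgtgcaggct
The Egfr window held 1 GC box, read on the opposite strand near the start, and none of the other motifs, while the Btc window held none of the 4. Over 32851 promoter windows of the same length, 32.7% held a GC box, 12.4% a TATA box, 6.75% an AP-1 site and 6.02% this E box. The share of G and C was 60.8% in the Egfr window and 59.6% in the Btc window, beside a median of 52.4%. These matches are descriptions of the letters and do not show binding.

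Erbb3, which binds some neuregulins and signals through its partners, was lower in mt-CCs, in EV cells and in p53 R175H cells than in fl-CCs. At probe set 1434606_at the log2 values were 9.78, 10.15 and 10.19 in fl-CCs, 9.19, 9.30 and 9.28 with EV, 8.41, 8.71 and 8.66 with p53 R175H, and 7.94, 8.10 and 7.70 in mt-CCs. The groups followed the order fl-CCs, EV, p53 R175H and mt-CCs, and no neighbors in that order overlapped. At 1452482_at the values were 6.86, 7.56 and 7.36 in fl-CCs, 6.22, 5.98 and 5.67 with EV, 5.41, 5.54 and 5.35 with p53 R175H, and 4.82, 5.46 and 5.05 in mt-CCs. The order was the same, with the p53 R175H and mt-CC arrays overlapping.

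Between mt-CCs and fl-CCs the Erbb3 transcript fell by 2.13 on the log2 scale at 1434606_at (SE 0.13, adjusted p = 1.26e-07), to a level 4.37-fold lower, and fell by 2.15 at 1452482_at (SE 0.20, adjusted p = 5e-06). With p53 R175H against EV it fell by 0.66 at 1434606_at (SE 0.13, adjusted p = 0.00413), and the difference of -0.52 ± 0.20 at 1452482_at did not pass (adjusted p = 0.095). With EV against fl-CCs it fell by 0.78 (SE 0.13, adjusted p = 0.00257) and by 1.30 (SE 0.20, adjusted p = 0.00134). In that last comparison the vector and growth in G418 cannot be told apart. Set directly against untransfected fl-CCs, a comparison added after the values had been seen, p53 R175H cells were lower by a difference of -1.45 (adjusted p = 3.38e-05) and -1.83 (adjusted p = 0.000113). In that comparison 1 of the 19 probe sets was higher, an Egfr probe set, beside 7.77% of all probe sets, and 2 were lower, those of Erbb3, beside 7.25% of all. The Egfr call, at 1424932_at, was lost without p53 R175H replicate 1 (adjusted p = 0.0509) and with only these groups in the fit (adjusted p = 0.0635).

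In mt-CCs, where Erbb3 was lower than in fl-CCs, the means of epithelial and ductal markers were lower too, and the fibroblast mean was higher. The mean of the 23 epithelial markers was 8.64 to 8.67 in the fl-CC arrays, 6.99 to 7.12 in mt-CCs, 8.40 to 8.43 with EV and 8.43 to 8.54 with p53 R175H, with 16 of the 23 lower and 2 higher in mt-CCs. The mean of the 6 ductal markers was 10.51 to 10.75 in fl-CCs, 10.19 to 10.29 with EV, 10.0 to 10.03 with p53 R175H and 8.21 to 8.41 in mt-CCs, the same order of groups as for Erbb3 and without overlap. In mt-CCs 4 of the 6 were lower and none was higher, with p53 R175H against EV 4 were lower and 2 higher, and with EV against fl-CCs 2 were lower and 1 higher. The epithelial and ductal lists share Krt7, Krt19 and Muc1. The mean of the 17 fibroblast markers was 5.74 to 5.92 in fl-CCs, 6.84 to 6.97 in mt-CCs, 5.95 to 6.06 with EV and 6.12 to 6.15 with p53 R175H, with 10 higher and 1 lower in mt-CCs. Of the 17, 7 had a mean of 5 or more in fl-CCs and with EV, and 8 in mt-CCs and with p53 R175H. Col1a2, Col6a3, Dcn, Lum, Fap, Thy1, Postn and Pdpn lay under 5 in all 4 groups. Col3a1 lay under 5 in every group but mt-CCs, Pdgfra only in fl-CCs, and Acta2 in mt-CCs and with EV. Col1a1, Col5a1, Pdgfrb, Fn1, Vim and Sparc had a mean of 5 or more in every group. The part of these markers in the differences of Erbb3 and of the other members was not tested, and in bulk RNA fewer cells of a kind and less RNA per cell cannot be told apart. Between EV and fl-CCs, where Erbb3 also fell, 7 epithelial markers were lower, 1 was higher and 15 were not called. Between p53 R175H and EV 3 were lower, 4 higher and 16 not called. Over all genes, 22.2% were higher and 21.1% lower in mt-CCs against fl-CCs. These shares were 15.3% and 15.1% for p53 R175H against EV, and 10.4% and 9.2% for EV against fl-CCs.

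**Figure D3:**
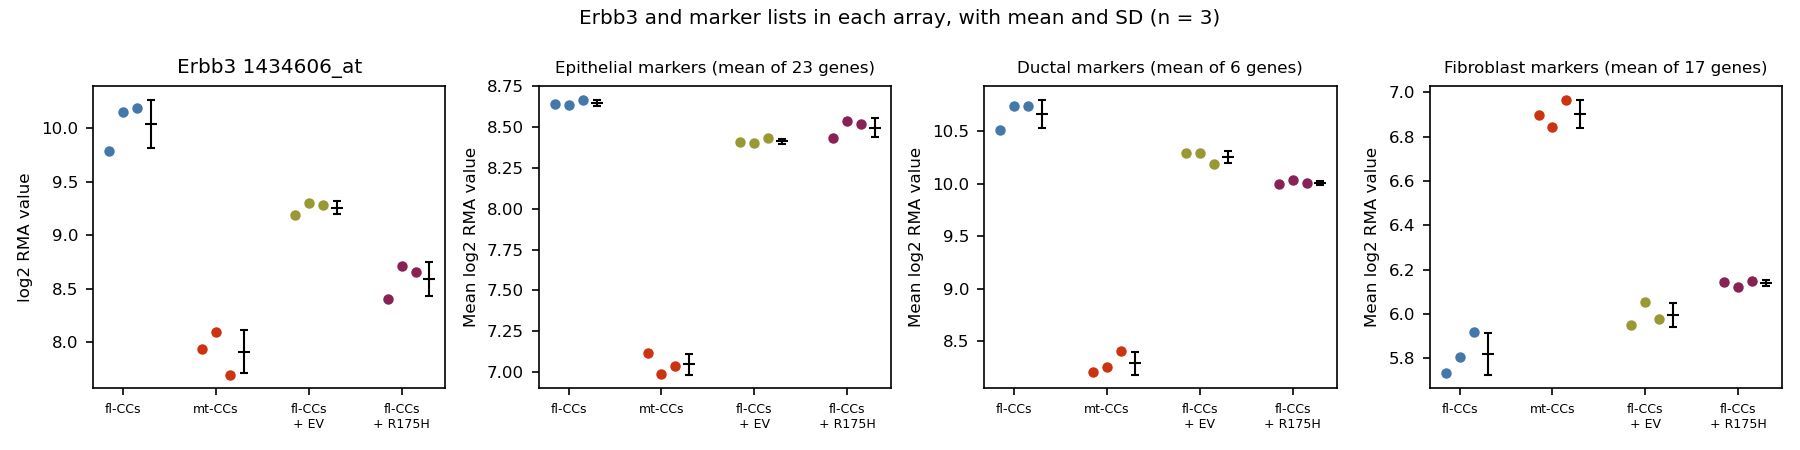
Log2 RMA value of Erbb3 at 1434606_at and the mean log2 value of 23 epithelial, 6 ductal and 17 fibroblast markers in each array, by group, with mean and SD as bars (n = 3). Erbb3 lies lower in EV and p53 R175H cells than in fl-CCs, while the epithelial mean of these groups lies at 8.40 to 8.54, beside 8.64 to 8.67 in fl-CCs, and the ductal mean follows the order of groups of Erbb3.

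Erbb2, the receptor without a known ligand, differed less. Its log2 values at 1424919_at were 8.52, 8.50 and 8.56 in mt-CCs, 9.03, 9.02 and 9.10 in fl-CCs, 9.12, 9.27 and 8.98 with EV and 8.66, 8.86 and 8.95 with p53 R175H. The mt-CC arrays were below all others, and fl-CCs and EV overlapped. The transcript fell by 0.53 in mt-CCs against fl-CCs (SE 0.10, adjusted p = 0.00129). The difference of -0.30 ± 0.10 between p53 R175H and EV lay just outside the threshold (adjusted p = 0.0517). It passed without EV replicate 3 (adjusted p = 0.034) and without p53 R175H replicate 3 (adjusted p = 0.0447).

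The ligands Hbegf and Btc had their highest level in EV cells. HB-EGF and betacellulin both bind EGFR and ErbB4. At Hbegf 1418349_at the values were 10.96, 11.02 and 10.92 with EV, 10.23, 10.25 and 10.28 in fl-CCs, 10.21, 10.20 and 10.23 with p53 R175H, and 9.75, 9.81 and 10.04 in mt-CCs. At 1418350_at they were 10.74, 10.76 and 10.67 with EV, 9.78, 10.21 and 10.20 in fl-CCs, 10.14, 10.01 and 9.88 with p53 R175H, and 9.65, 9.73 and 9.87 in mt-CCs. The EV arrays were above all others at both probe sets, and fl-CCs and p53 R175H overlapped.

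At Btc 1421161_at the values were 9.32, 9.39 and 9.65 with EV, 8.57, 8.60 and 8.50 in fl-CCs, 8.47, 8.34 and 8.30 with p53 R175H, and 8.12, 8.0 and 7.92 in mt-CCs. At 1435541_at they were 8.45, 8.26 and 8.52 with EV, 7.31, 7.48 and 7.58 in fl-CCs, 7.63, 7.08 and 6.90 with p53 R175H, and 6.73, 6.56 and 6.72 in mt-CCs. The EV arrays were again highest and the mt-CC arrays lowest, without overlap with any other group.

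With p53 R175H against EV, Hbegf fell by 0.75 (SE 0.09, adjusted p = 8.7e-05) and by 0.71 (SE 0.12, adjusted p = 0.00137) at its probe sets. Btc fell by 1.08 (SE 0.10, adjusted p = 1.75e-05) and by 1.20 (SE 0.16, adjusted p = 0.000248), which at 1421161_at was 2.11-fold lower. With EV against fl-CCs, Hbegf rose by 0.71 ± 0.09 (adjusted p = 0.000258) and 0.66 ± 0.12 (adjusted p = 0.00401) and Btc by 0.90 ± 0.10 (adjusted p = 0.000147) and 0.95 ± 0.16 (adjusted p = 0.00232). The EV arrays enter both comparisons, so a high EV level appears in each. Against untransfected fl-CCs, p53 R175H cells had a difference of -0.04 in Hbegf at 1418349_at (95% interval -0.23 to 0.15, adjusted p = 0.835) and -0.18 in Btc at 1421161_at (95% interval -0.41 to 0.04, adjusted p = 0.29). At Btc 1435541_at the difference was -0.25 (adjusted p = 0.366), and -0.46 without p53 R175H replicate 1 (adjusted p = 0.034).

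Between mt-CCs and fl-CCs both ligand genes were lower. Hbegf fell by 0.39 at 1418349_at (SE 0.09, adjusted p = 0.00439). At 1418350_at the difference was -0.31 ± 0.12, with overlapping arrays (adjusted p = 0.0756), and without fl-CC replicate 1, the lowest of its group, it was -0.45 (adjusted p = 0.00648). Btc fell by 0.54 at 1421161_at (SE 0.10, adjusted p = 0.00139) and by 0.79 at 1435541_at (SE 0.16, adjusted p = 0.00248).

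Tgfa, whose product TGFα binds EGFR, had its lowest values in mt-CCs. At 1421943_at the values were 6.79, 6.75 and 7.06 in mt-CCs, 8.23, 8.16 and 8.0 in fl-CCs, 7.89, 8.23 and 8.10 with EV and 8.11, 8.14 and 8.10 with p53 R175H. The mt-CC arrays lay below the other 3 groups, which overlapped. The transcript fell by 1.26 in mt-CCs against fl-CCs (SE 0.11, adjusted p = 3.23e-06), a level 2.40-fold lower. With p53 R175H against EV the difference was 0.04 ± 0.11 (95% interval -0.21 to 0.29, adjusted p = 0.872), and with EV against fl-CCs -0.06 ± 0.11 (adjusted p = 0.825). The other Tgfa probe sets were not called in this comparison. At 1450421_at all arrays lay between 5.77 and 6.11 (mt-CCs minus fl-CCs -0.16 ± 0.09, adjusted p = 0.223), and at 1421942_s_at between 4.94 and 5.55 (-0.14 ± 0.12, adjusted p = 0.427).

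Ereg, which encodes the ligand epiregulin, had values of 7.31, 7.46 and 7.32 in mt-CCs, 6.79, 7.15 and 6.74 in fl-CCs, 7.36, 7.20 and 7.20 with EV and 7.26, 6.70 and 6.84 with p53 R175H at 1419431_at. The mt-CC arrays were all above the fl-CC arrays and overlapped those with EV. It rose by 0.47 ± 0.15 in mt-CCs against fl-CCs (adjusted p = 0.0298). This call was lost without any one of the mt-CC arrays and without fl-CC replicate 1 or 3 (adjusted p = 0.0526 to 0.11). With p53 R175H against EV the difference was -0.32 ± 0.15 (adjusted p = 0.167), and -0.48 without p53 R175H replicate 1 (adjusted p = 0.0279).

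Egf itself was near background. Its values at 1418093_a_at were 4.48, 4.52 and 4.88 in mt-CCs, 5.0, 5.10 and 4.92 in fl-CCs, 4.70, 4.66 and 4.64 with EV and 5.07, 4.88 and 4.98 with p53 R175H. The probe set passed the test between mt-CCs and fl-CCs (adjusted p = 0.02), but no fold is given at this level. That call was lost without mt-CC replicate 1, mt-CC replicate 2 or fl-CC replicate 2 (adjusted p = 0.0746 to 0.0765).

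**Figure D4:**
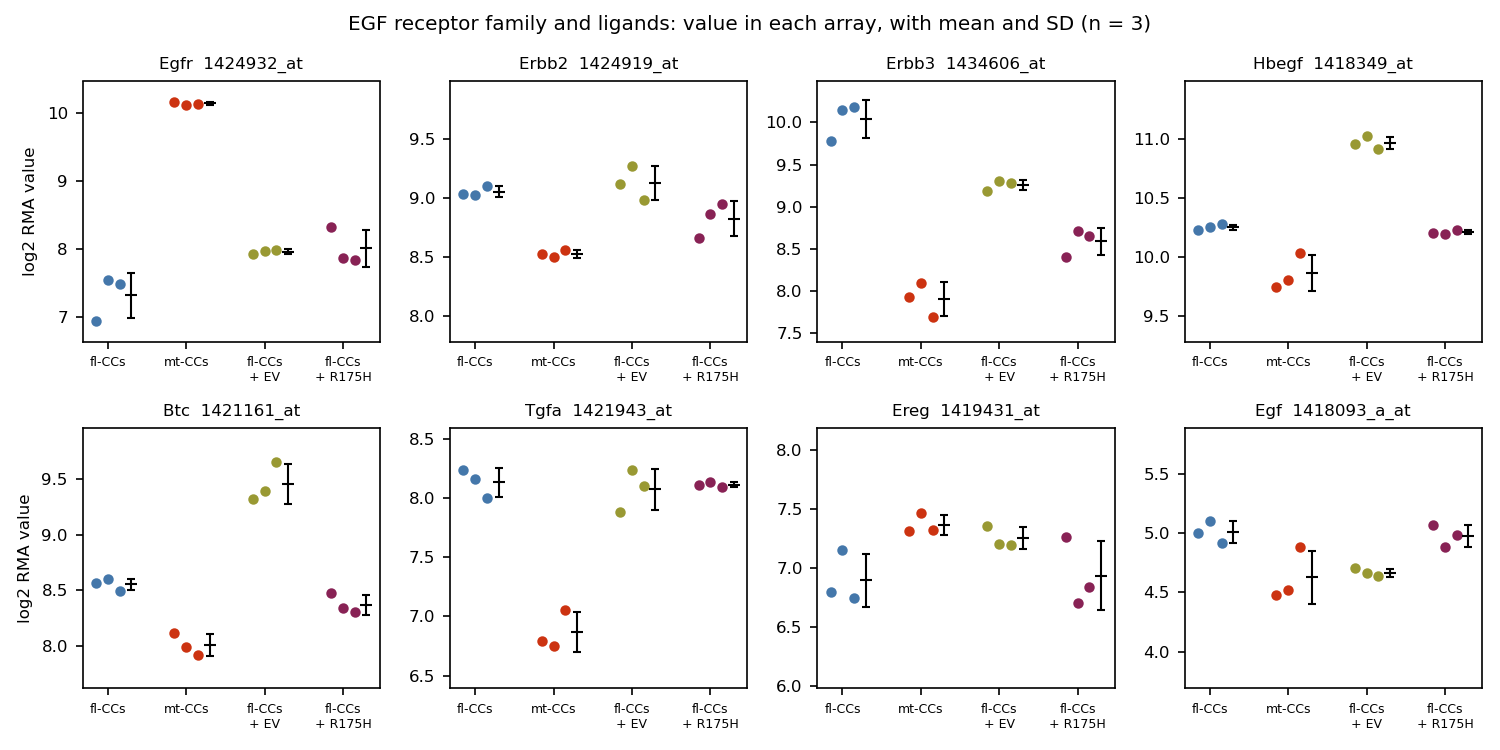
Log2 RMA value in each array (points) for the probe set with the highest mean of each of the 8 genes, by group, with the group mean and SD as bars (n = 3). Egfr is highest in mt-CCs at 10.13 to 10.17, Erbb3 highest in fl-CCs, Hbegf and Btc highest in EV cells, and Tgfa lower in mt-CCs than in the other groups.

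Whether the difference between mt-CCs and fl-CCs was of the same size as that between p53 R175H and EV was tested by the difference of both differences, which share no arrays. Of the 19 probe sets, 8 had a positive value that passed (13.6% of all probe sets) and 4 a negative one (13.1% of all). For Egfr the difference was larger between mt-CCs and fl-CCs at 5 probe sets, by 2.77 (95% interval 2.27 to 3.27) at 1424932_at (adjusted p = 2.1e-06). For Tgfa it was lower by a value of -1.30 (95% interval -1.66 to -0.95) at 1421943_at (adjusted p = 6.86e-05). For Erbb3, where both differences were falls at 1434606_at, the fall in mt-CCs was the larger one, with a value of -1.46 (95% interval -1.88 to -1.05, adjusted p = 0.000105). For Btc at 1421161_at the fall with p53 R175H against EV was the larger one, with a value of 0.54 (95% interval 0.22 to 0.85, adjusted p = 0.015). At 1435541_at the value of 0.42 did not pass (adjusted p = 0.22). The EV cells had the highest level of Btc, and p53 R175H against untransfected fl-CCs gave -0.18 at 1421161_at (adjusted p = 0.29). For Erbb2 the value was -0.23 (95% interval -0.53 to 0.08, adjusted p = 0.277), so no difference was shown.

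Other genes of the pathway were read from 4 lists of 54 genes, of which 53 were measured. Between mt-CCs and fl-CCs 19 were higher (22.2% of all genes were), 12 lower (21.1% of all) and 22 not called, with a median difference of 0.07 beside -0.01 over all genes. With p53 R175H against EV 12 were higher (15.3% of all), 12 lower (15.1% of all) and 29 not called, with a median of -0.16 beside -0.03. With EV against fl-CCs 12 were higher (10.4% of all), 4 lower (9.2% of all) and 37 not called, with a median of 0.10 beside -0.01.

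Among the further ligands and the receptor Erbb4, only the neuregulin genes Nrg1 and Nrg4 were called between mt-CCs and fl-CCs. Neuregulins bind ErbB4, and some of them, but not the product of Nrg4, also bind ErbB3. Nrg4 had values of 5.14, 5.82 and 5.58 in mt-CCs, 6.92, 7.49 and 7.28 in fl-CCs, 7.32, 7.25 and 6.99 with EV and 5.78, 6.27 and 6.11 with p53 R175H at 1457123_at. The mt-CC and p53 R175H arrays were both below fl-CCs and EV. Nrg4 fell by 1.71 in mt-CCs against fl-CCs (SE 0.19, adjusted p = 2.51e-05) and by 1.13 with p53 R175H against EV (SE 0.19, adjusted p = 0.00141), and its other probe set was called in both comparisons too. Nrg1 rose in mt-CCs by 0.83 ± 0.21 (adjusted p = 0.00868) and with EV against fl-CCs by 1.42 ± 0.21 (adjusted p = 0.00084), from 4.70, 5.13 and 5.59 in fl-CCs to 5.66, 6.05 and 6.18 in mt-CCs and 6.54, 6.63 and 6.51 with EV. With p53 R175H against EV its difference was -0.47 ± 0.21 (adjusted p = 0.142). Nrg2 was not called, with 6.58 in mt-CCs and 6.77 in fl-CCs at its brightest probe set (adjusted p = 0.258), and Epgn, Nrg3 and Erbb4 had means near 3 in both groups, near background.

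Of 9 genes for the release of ligands from the membrane, 3 were higher and 3 lower in mt-CCs, beside 22.2% and 21.1% of all genes. The iRhom gene Rhbdf1, which helps ADAM17 mature, rose by 0.44 ± 0.11, and the protease gene Adam10 by 0.38 ± 0.10, the latter at 1 of 4 probe sets. The rhomboid protease gene Rhbdl2 fell by 1.80 (SE 0.13, adjusted p = 4.21e-07) and Adam12 by 1.17 (SE 0.13, adjusted p = 1.63e-05). With p53 R175H against EV, Rhbdl2 fell by 0.51 (SE 0.13, adjusted p = 0.0149) and Adam12 by 0.52 (SE 0.13, adjusted p = 0.0117). Rhbdf1 and Adam10 were not called there. Adam17, the main sheddase of several EGFR ligands, was named here after its values were seen. Like Hbegf and Btc, it rose with EV against fl-CCs, by 0.53 ± 0.08 (adjusted p = 0.00116), and fell with p53 R175H against EV by 0.55 (SE 0.08, adjusted p = 0.000473), with means of 9.94 in fl-CCs, 10.47 with EV and 9.92 with p53 R175H at 1421859_at. Unlike them, it rose between fl-CCs and mt-CCs, by 0.37 ± 0.08 (adjusted p = 0.00386).

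Of 16 adaptors and effectors, 6 were higher and 3 lower in mt-CCs, beside 22.2% and 21.1% of all genes. Gab1, a docking protein of activated receptors, rose by 1.21 ± 0.11 in mt-CCs (adjusted p = 2.51e-06) and by 0.93 ± 0.11 with p53 R175H against EV (adjusted p = 7.41e-05). The adaptor gene Crk rose by 1.19 ± 0.15 in mt-CCs, at 2 of its 5 probe sets. Its brightest probe set, 1448248_at, had means of 11.78 in mt-CCs and 11.81 in fl-CCs. With p53 R175H against EV the difference of Crk at 1460176_at was -0.51 ± 0.15 (adjusted p = 0.0358), the opposite direction, with 1 of 5 probe sets called. Of the PI3K subunit genes, Pik3ca fell in mt-CCs by 0.49 (SE 0.10) at its most significant probe set, with 4 of 6 called. Pik3r1 fell by 0.48 (SE 0.09) at 1425514_at, its dimmest probe set, with 1 of 4 called. Its brightest, 1438682_at, had means of 9.58 in mt-CCs and 9.65 in fl-CCs. With p53 R175H against EV both genes rose instead. Pik3ca rose by 0.32 ± 0.10 (adjusted p = 0.0413), with 1 of 6 probe sets called. Pik3r1 rose by 0.40 ± 0.08 at 1438682_at (adjusted p = 0.0052), with 2 of 4 called.

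Of 22 negative regulators and genes of receptor endocytosis, 9 were higher and 5 lower in mt-CCs, beside 22.2% and 21.1% of all genes. Sh3kbp1, whose product CIN85 links the ubiquitin ligase CBL to the uptake of EGFR, had values of 12.51, 12.61 and 12.43 in mt-CCs and 9.66, 9.71 and 9.51 in fl-CCs at 1432269_a_at, with 10.01, 9.88 and 10.01 with EV and 9.68, 9.65 and 9.50 with p53 R175H. The mt-CC arrays stood above all others. It rose by 2.89 ± 0.09 (adjusted p = 2.23e-10), and all 4 of its probe sets were called. Cd2ap, which encodes a related adaptor, fell by 1.32 (SE 0.09, adjusted p = 1.52e-07) in the same comparison. The phosphatase gene Ptpn1 rose by 1.14 ± 0.11 and the ubiquitin ligase gene Cblc fell by 1.37 (SE 0.12). With p53 R175H against EV, Ptpn1 rose by 0.70 ± 0.09 at 1417068_a_at (adjusted p = 0.000192), and Cblc fell by 0.40 (SE 0.12, adjusted p = 0.0408). Sh3kbp1 fell there by 0.35 at 1432269_a_at (SE 0.09, adjusted p = 0.0165), the opposite direction, with 1 of 4 probe sets called. Cd2ap was not called there (adjusted p = 0.922).

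**Figure D5:**
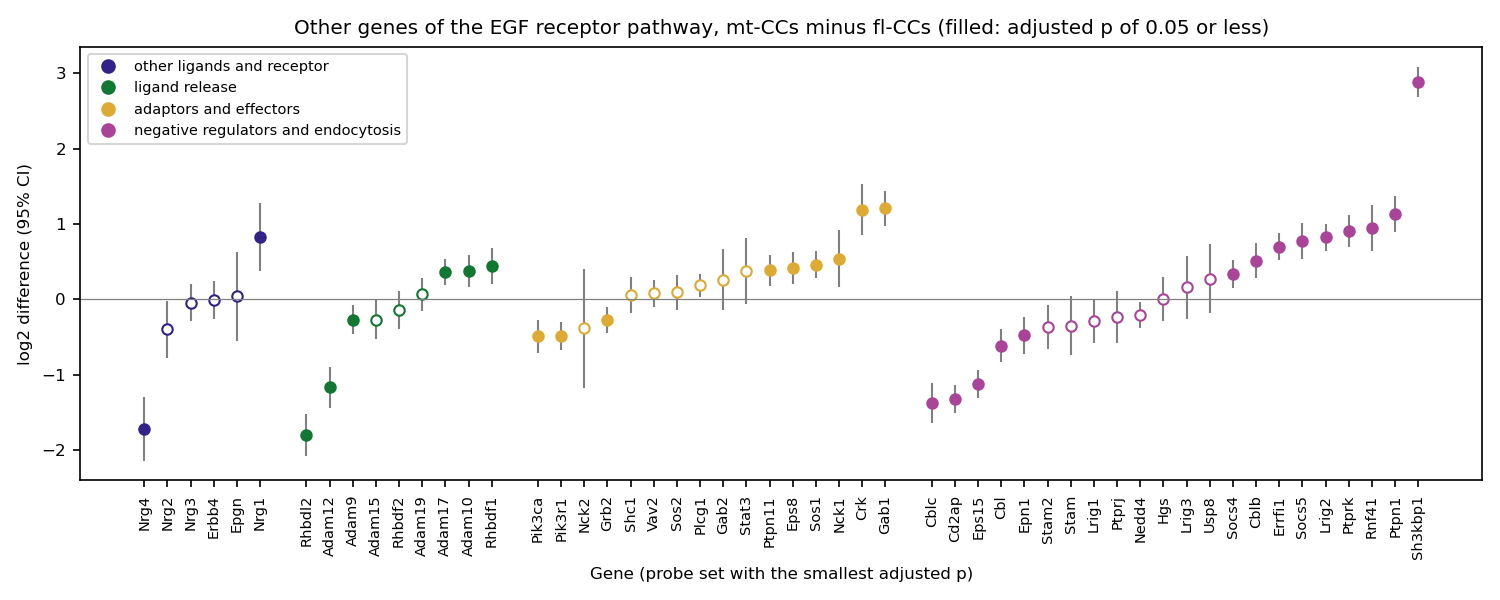
Log2 difference between mt-CCs and fl-CCs (vertical axis, points, with 95% confidence intervals as bars) for 53 other genes of the EGF receptor pathway, grouped by list, each at the probe set of lowest adjusted p (n = 3 arrays per group). Filled points passed an adjusted p of 0.05; Sh3kbp1 is the highest at 2.89 and Rhbdl2 the lowest at -1.80.

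The genes with the most similar pattern over the 12 arrays were found by Pearson's r among 12380 genes, as a description, since the arrays fall into 4 groups. For Egfr they were Tram2 and Celf4 (both r = 0.990), and for Erbb3 Depp1 (r = 0.978) and Slc6a6 (r = 0.975). For Hbegf they were Afap1l1 (r = 0.979) and Hey1 (r = 0.973), and for Btc Afap1l1 (r = 0.974) and H2-Q10 (r = 0.973). For Tgfa they were Bmyc (r = 0.989) and Fut4 (r = 0.987). Erbb2, Ereg and Egf spanned under 1 on the log2 scale between groups and were left out.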

How the data were processed

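The authors hybridized RNA from biological triplicates to Affymetrix mouse arrays, and the deposited values are log2 values after RMA summary and normalization. The sources used here name no build for these values. Names came from the platform annotation, in which all 8 gene numbers matched a RefSeq table of GRCm38.p6. Of 45101 probe sets, 64 controls were left out. In R 4.3.3, the functions lmFit and eBayes of limma 3.58.1 fitted group means over all 12 arrays, with Benjamini-Hochberg adjustment over 45037 probe sets and the methods' threshold of 0.05 without a fold limit. The methods name Partek for this step. The probe set of lowest adjusted p stood for a pathway gene, as in the methods. All 8 members were named, with every measured ligand and receptor of the further list, and in each pathway list the top 2 rises and the top 2 falls in mt-CCs against fl-CCs, taken from called genes with a group mean of 5 or more. Genes with a similar pattern were the 2 with the highest r for each member that spans at least 1 between group means. The members and lists were chosen with earlier results of these data known. The comparison of p53 R175H cells with untransfected fl-CCs was added after the data were seen. The number of arrays limits the precision. The fit was tested on simulated data. Each array was left out in turn. Other settings were a block on the replicate number, fewer groups in the fit, array weights, an intensity trend, no moderation, a limit on the fold, other normalizations, filters on dim probe sets and the controls kept in. A further allele that all 4 groups share is not reported here.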

Additional observations from a re-analysis of the deposited data

Results flagged for a closer look

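The difference between mt-CCs and fl-CCs was not the same as that between p53 R175H and EV for 12 probe sets, by the test of the difference of both differences in the limma fit (n = 3 arrays per group). For Egfr the values were 2.77 at 1424932_at (adjusted p = 2.1e-06), 2.01 at 1460420_a_at (adjusted p = 5.31e-05), 2.64 at 1451530_at (adjusted p = 5.79e-05), 2.59 at 1435888_at (adjusted p = 2.13e-05) and 1.52 at 1457563_at (adjusted p = 0.00276), the last near background. For Erbb3 they were -1.46 at 1434606_at (adjusted p = 0.000105) and -1.62 at 1452482_at (adjusted p = 0.00104). Tgfa had -1.30 at 1421943_at (adjusted p = 6.86e-05), Ereg 0.79 at 1419431_at (adjusted p = 0.0138) and Egf -0.69 at 1418093_a_at (adjusted p = 0.00557), the last near background. Btc had 0.54 at 1421161_at (adjusted p = 0.015), where both differences were falls and the one with p53 R175H against EV was the larger. The other Btc probe set did not pass (0.42 at 1435541_at, adjusted p = 0.22). The EV cells had the highest level of Btc, and the mt-CCs the lowest. Against untransfected fl-CCs, p53 R175H gave -0.18 at 1421161_at (adjusted p = 0.29). Hbegf had 0.36 at 1418349_at (adjusted p = 0.0483), and this call was lost in 11 of the 12 fits that left out 1 array (adjusted p = 0.0562 to 0.107).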

How the results depend on the processing

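Of 95 member differences, 16 changed sign under an alternative, and 0 of these had passed the test. With 1 array left out, p53 R175H against EV ran from -0.107 to 0.136 for Egfr at 1424932_at, -0.118 to 0.0813 at 1460420_a_at, -0.213 to 0.0104 at 1454313_at and -0.222 to 0.109 at 1451530_at. For Tgfa it ran from -0.0546 to 0.119 at 1421943_at, -0.0532 to 0.0448 at 1450421_at (-0.0123 with array weights) and -0.106 to 0.0341 at 1421942_s_at. EV against fl-CCs ran from -0.0234 to 0.231 for Egfr at 1432647_at, -0.00296 to 0.141 for Erbb2 and -0.138 to 0.0354 for Tgfa at 1421943_at. The difference of differences of Egfr at 1432647_at ran from -0.142 to 0.149 (0.000518 with array weights). P53 R175H against untransfected fl-CCs ran from -0.0599 to 0.333 for Egfr at 1457563_at, -0.127 to 0.166 for Ereg, -0.194 to 0.0226 for Hbegf at 1418350_at, -0.0867 to 0.0321 for Tgfa at 1421943_at (0.023 with array weights) and -0.0778 to 0.0181 for Egf. With a fold limit of 1 on the log2 scale, the member probe sets called were 8 between mt-CCs and fl-CCs, 2 with p53 R175H against EV and 1 with EV against fl-CCs, and the pathway genes called were 11, 2 and 4. With 1 array left out at a time, the member probe sets called numbered 12 to 14, 5 to 7, 6 to 9 and, for p53 R175H against untransfected fl-CCs, 3 to 5, with 5 without fl-CCs replicate 3. The pathway genes called with EV against fl-CCs numbered 10 to 17, with 10 without fl-CCs replicate 2. No share of all probe sets or genes is given here for the fits with a fold limit, a left-out array or the replicate block. Counts under these settings therefore describe the members and lists only. The replicate numbers did not pair the samples, since the deviations of same-numbered arrays from their group means had correlations of -0.09 to 0.04. With the replicate block 14, 5 and 9 member probe sets were called, Hbegf at 1418349_at lost its difference of differences (0.36, adjusted p = 0.0697), and Egfr at 1457563_at gained a call with EV against fl-CCs (adjusted p = 0.0445). Egf between mt-CCs and fl-CCs was lost with only these groups in the fit (adjusted p = 0.0696) and with an intensity trend (adjusted p = 0.0575), and Ereg with an unmoderated model (adjusted p = 0.0597). Erbb2 with p53 R175H against EV was gained with an unmoderated model (adjusted p = 0.0466), a trend (0.0323), array weights (0.0352) and a filter on dim probe sets (0.0247). In the same comparison Erbb3 at 1452482_at was gained with only these groups in the fit (adjusted p = 0.0446) and with array weights (0.0418). Hbegf at 1418350_at between mt-CCs and fl-CCs was gained with a trend (adjusted p = 0.0309), array weights (0.0251) and a filter on dim probe sets (0.0451). The causes were not tested. Values near background limit what the array can show for Egf and for some Egfr probe sets.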
